A study of Rattus norvegicus with 7 samples.

Results

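The mir-15 family of microRNAs (miRNAs) was represented in the postnatal rat retina by 4 loci, Mir15b, Mir16, Mir195 and Mir497. The members were chosen by symbol, as every miRNA feature named for mir-15, mir-16, mir-195 or mir-497, and they made up 4 of the 571 miRNA features and of the 5491 features in the deposited values. Mir15a was not analysed here, and miRNA features without a family name were not assigned to the family. The retinas came from untreated Wistar WU rats at postnatal days 1, 3, 5, 7, 10, 15 and 21 (P1 to P21), with no transgene and no agent in any group. Age was the only difference between the groups that the labels give. The libraries also differed in depth and make-up, as described below. For each age the RNA of 3 retinas was combined into 1 pool before small RNA sequencing on the Ion Torrent PGM. Each age therefore had 1 value, no spread between animals could be calculated, and no test between ages was possible.

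A miRNA is cut from a hairpin precursor to a short strand that binds messenger RNAs through its seed, the bases near its 5′ end, and lowers their translation or stability. The mir-15 family is known for holding cells in the resting phase of the cell cycle, because its shared seed recognises the messages of D and E type cyclins, CDK6, the checkpoint kinase CHK1 and the survival factor BCL2. In rodents the first postnatal weeks are the time when retinal progenitors divide for the last time and the late cell types (rods, bipolar cells and Müller glia) mature.

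The 5′ strands of the 4 members are printed here because the shared seed is what makes them a family and the bases after it are what separates them. The sequences were taken from RefSeq (GRCr8 assembly), where all 4 members were matched, and are written 5′ to 3′ with the seed, bases 2 to 8, in capitals.
rno-miR-15b-5p: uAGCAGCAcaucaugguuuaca
rno-miR-16-5p: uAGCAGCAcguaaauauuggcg
rno-miR-195-5p: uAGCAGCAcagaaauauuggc
rno-miR-497-5p: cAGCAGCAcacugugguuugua
The same seed occurred in 5 of the 724 mature rat miRNAs of that table, namely these 4 strands and miR-322-5p. The strand of Mir503, a relative usually counted with the family, has a seed that differs from the others in its last base.
rno-miR-322-5p: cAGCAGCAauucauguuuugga
rno-miR-503-5p: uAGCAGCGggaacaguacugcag
Outside the seed the closest pairs among the members cut across the genomic clusters. Counted from 1 at the 5′ end, miR-16-5p and miR-195-5p differed at 2 of 21 compared bases, G10A and U11G, with the miR-16 base given first. The strands of Mir15b and Mir497 differed at 6 of 22 bases, but those of Mir15b and Mir195 were almost as close, at 7 of 21. Within the clusters the strands of Mir15b and Mir16 differed at 8 of 22 and those of Mir195 and Mir497 at 9 of 21. The deposited values hold 1 level per hairpin, so the 5′ and 3′ strands of a locus could not be told apart.

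The members lie in 2 clusters of the rat genome, with coordinates here from the build Rnor_6.0. Mir15b (ENSRNOG00000035483.1) spans bases 165605923 to 165606020 of chromosome 2 in the forward direction, and Mir16 (ENSRNOG00000035504.1) follows it on the same strand at 165606072 to 165606166, with 51 bases between them. Mir497 (ENSRNOG00000036260.1) spans bases 56844977 to 56845045 of chromosome 10, also forward, and Mir195 (ENSRNOG00000035638.2) follows at 56845301 to 56845387, with 255 bases between them. In RefSeq's GRCr8 gene list Mir15b and Mir16 lie within Smc4, which encodes a condensin subunit needed to fold mitotic chromosomes. Their position relative to the exons of Smc4 was not analysed here. Mir195 and Mir497 overlap no other gene in that list, and the nearest gene other than a miRNA is C10h17orf49.

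Levels are given in FPKM, which divides the mapped fragments by the length of a feature and by the library's total. Low FPKM values in a library were whole multiples of the worth of 1 alignment, which allowed the number of alignments behind each value to be estimated. At P1 1 alignment was worth 49.9 FPKM at Mir15b, 74.0 at Mir16, 116 at Mir195 and 156 at Mir497, so that a short locus shows a higher FPKM for the same number of reads. The libraries held between 298488 estimated alignments at P1 and 1362934 at P21, and the miRNAs took from 39.1% of them (P3) to 74.2% (P15), with at least 58.0% at every age but P3. From P3 to P15 the values of an age were built from 2 components of different depth, and at P21 from 4, which could not be assigned to sequencing runs. Over the miRNAs whose components could be separated, the median difference between the components of an age lay between 0.66 and 1.34 on the log2 scale. The 95% intervals below cover counting error only, not this spread, and PCR copies are counted as if they were separate molecules.

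The miRNAs known from retinal cells were present at every age. The 3 Mir124 loci, which mark neurons, together rose from 1020250 FPKM at P1 to 11820000 FPKM at P21. Mir183 and Mir96, which mark photoreceptors and other sensory cells, had a summed level of 117463 FPKM at P1, 1015630 FPKM at P10 and 537842 FPKM at P21. Mir182 and Mir486 were not analysed here. The muscle list (Mir1b, Mir133b and Mir206) was at 165251 FPKM at P3 and 100176 FPKM at P5. It was at 4840 to 11665 FPKM at the other ages, from 19 to 77 estimated alignments. At P3 the list had 316 estimated alignments, and Mir206 alone gave 130765 FPKM from 109 of them.

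In the summed level the family was high at P1 and P10 and lowest at P21. The sum was 412887 FPKM at P1, 275118 and 318957 at P3 and P5, 270507 at P7, 411237 at P10, and 262205 and 222301 at P15 and P21. P1 and P10 differed by less than their counting error, and so did P3, P7 and P15 as neighbours in the order of the levels. As deposited, no difference of the sum between ages exceeded the largest median difference between components, 1.34 on the log2 scale. The difference of log2(FPKM + 1) between P1 and P21 was 0.89 (95% counting interval from 0.84 to 0.94), within a change of 2-fold. After scaling each library to the same miRNA total it was 1.52, past 2-fold. Over all 571 miRNA features the median of this difference was 0.049. As a share of all estimated miRNA alignments the family fell from 3.62% at P1 (95% Wilson interval from 3.53 to 3.70) to 0.868% at P21 (from 0.846 to 0.889). The 3 Mir124 loci held 14628 of 178147 estimated miRNA alignments at P1 and 468894 of 984306 at P21. The family's share, like scaling to the miRNA total, therefore also depends on the other miRNAs. In bulk tissue a lower level cannot be told apart from fewer cells that make the miRNA.

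The sum was carried by Mir16 and Mir15b and hid opposite courses of the members. Of the 4 members, 1 was at least 2-fold higher at P1 than at P21 (Mir15b), against 32.9% of all miRNA features, and 2 were at least 2-fold lower at P1 (Mir195 and Mir497), against 31.5%. Mir16 stayed within 2-fold, although scaling each library to the same miRNA total, which raises every difference between P1 and P21 by 0.63 on the log2 scale, brought it to 1.21. Of all miRNA features 188 were at least 2-fold higher and 180 lower at P1 as deposited, and 249 and 135 after that scaling. With 4 members these counts do not set the family apart from all miRNAs, and the members are described singly. A 2-fold change was used as the call because there was 1 library per age.

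**Figure D1:**
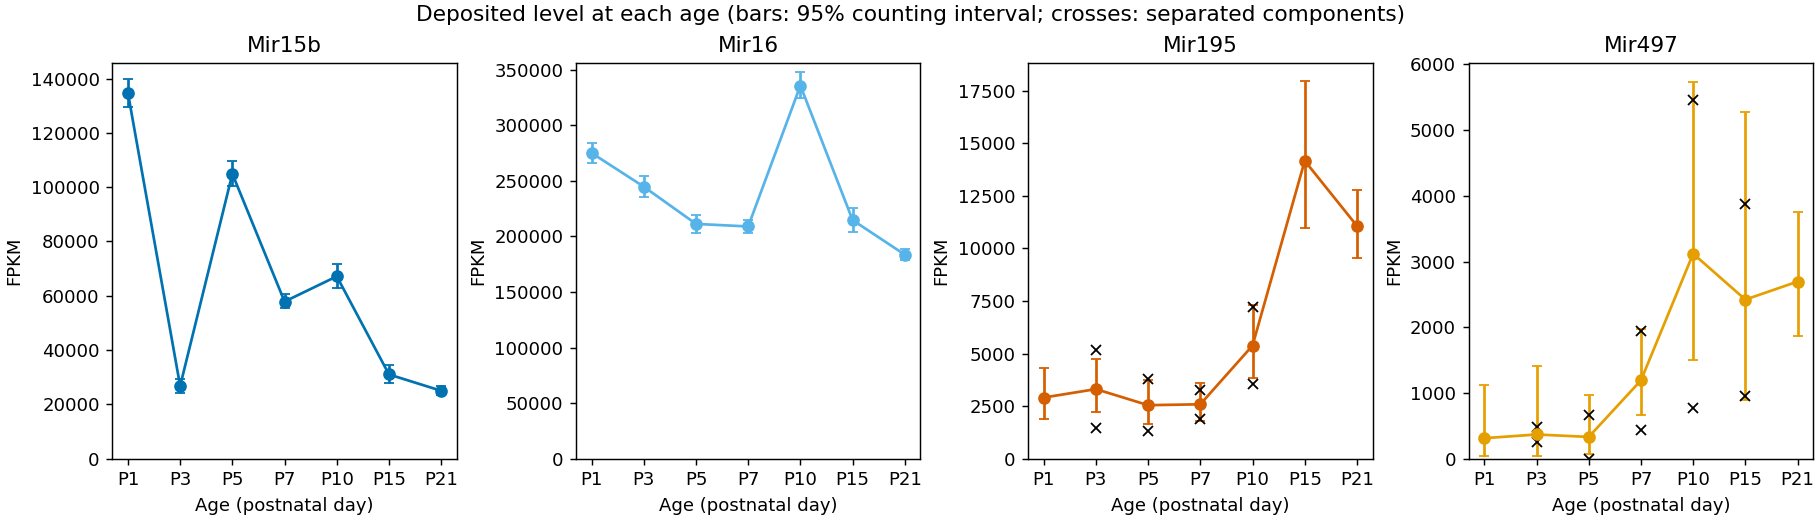
Deposited level of each member at the 7 ages, in FPKM on axes that start at 0 and differ between panels. Points are the deposited values, bars the 95% counting intervals and crosses the separated components where these were unique. Mir15b falls from 134684 to 25016 FPKM with a dip at P3, Mir16 stays between 183517 and 335586 FPKM, while the highest values are at P15 and P21 for Mir195 and at P10, P15 and P21 for Mir497.

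Mir16 was the most abundant member, ranking 18 among the 571 miRNA features by mean FPKM, and the steadiest. Its level was 274982 FPKM at P1, 244658 at P3, 211170 and 208863 at P5 and P7, 335586 at P10, and 214585 and 183517 at P15 and P21. The P10 library was the highest and the P21 library the lowest, and these differed by 0.87 (from 0.81 to 0.93) on the log2 scale, or 1.83-fold. P5, P7 and P15 did not differ beyond counting error as neighbours in the order of levels. As deposited, no difference of Mir16 between ages exceeded the largest median difference between components, 1.34 on the log2 scale. No step of Mir16 between neighbouring ages reached 2-fold. The largest were a rise of 0.68 from P7 to P10 and a fall of 0.65 from P10 to P15. Each Mir16 value rested on at least 3033 estimated alignments, so counting error was small beside the median differences between components. In mammals mature miR-16 is also made from the cluster with Mir15a, and reads from such a locus could not be told apart from those of the Mir16 hairpin here.

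Mir15b, the neighbour of Mir16, showed the clearest fall of the family. It was listed at 134684 FPKM at P1, 26781 at P3, 104909 at P5, 57863 and 67152 at P7 and P10, and 31032 and 25016 at P15 and P21, and ranked 42 by mean FPKM. The libraries of P1 and P5 were high, those of P7 and P10 intermediate, and those of P3, P15 and P21 low. The difference between P1 and P21 was 2.43 (from 2.32 to 2.53) on the log2 scale, 5.38-fold. It exceeded the largest median difference between components, that of P3, but no such difference was measured for P1 or P21. P3 and P21 were the only neighbours in the order of levels that did not differ beyond counting error. Between P15 and P3 the interval of the difference, from 0.0063 to 0.42, lay just above 0.

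The low value at P3 interrupted the course of Mir15b. From P1 to P3 the level fell by 2.33 (from 2.19 to 2.48) on the log2 scale, and from P3 to P5 it rose by 1.97 (from 1.82 to 2.12). Such a dip, at least 2-fold below both P1 and P5, was found in 47 of the 571 miRNA features (8.23%), and in 10 of the 344 features that averaged 20 or more estimated alignments. Among these 10, which were listed after their values were seen, Mir15b had the largest fall from P1 to P3. It averaged 1566 estimated alignments, against 23.8 to 102 for the other 9. Mir451a, a miRNA of red blood cells, was one of the 10. Its level was 13378 FPKM at P1, 3660 at P3 and 7945 at P5. Mir144, which is made from the same transcript as Mir451a, was at 3497, 459 and 1026 FPKM at these ages, with 3 alignments at P3.

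The P3 library stood apart in other ways. The muscle list was highest there. The summed red blood cell list was lowest there, at 4120 FPKM (from 2714 to 5996) against 4737 to 16876 FPKM at the other ages. In this list P3 did not stand apart from P7, which was at 4737 FPKM (from 3652 to 6042). No marker of either list was at 0 at any age. The share of alignments that fell on miRNAs was lowest at P3, and the components of P3 differed most from each other. The part of these differences in the low Mir15b value was not tested. The value of Mir16 at P3 lay 0.17 below that of P1 on the log2 scale, so the dip was not shared by the locus next to it.

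The ratio of the cluster neighbours does not depend on how the libraries were scaled. Mir16 exceeded Mir15b in FPKM by a log2 ratio of 1.03 (from 0.96 to 1.10) at P1, 3.19 (from 3.05 to 3.34) at P3 and 1.01 (from 0.93 to 1.09) at P5. The ratio then was 1.85 at P7, 2.32 at P10, 2.79 (from 2.62 to 2.96) at P15 and finally 2.87 (from 2.78 to 2.97) at P21. Thus Mir16 was about equally far above Mir15b at P1 and P5, and from P5 on each later age had a higher ratio than the age before, with P15 and P21 overlapping in their intervals. Between P1 and P21 the log2 ratio rose by 1.85 (from 1.72 to 1.97). These intervals cover counting error only. Components of Mir15b and Mir16 were not separated, so the spread of the ratio between components is not known. In estimated alignments, which take no account of length, Mir15b had 72.7% as many as Mir16 at P1, 16.2% at P3, 73.7% at P5 and 20.2% at P21.

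**Figure D2:**
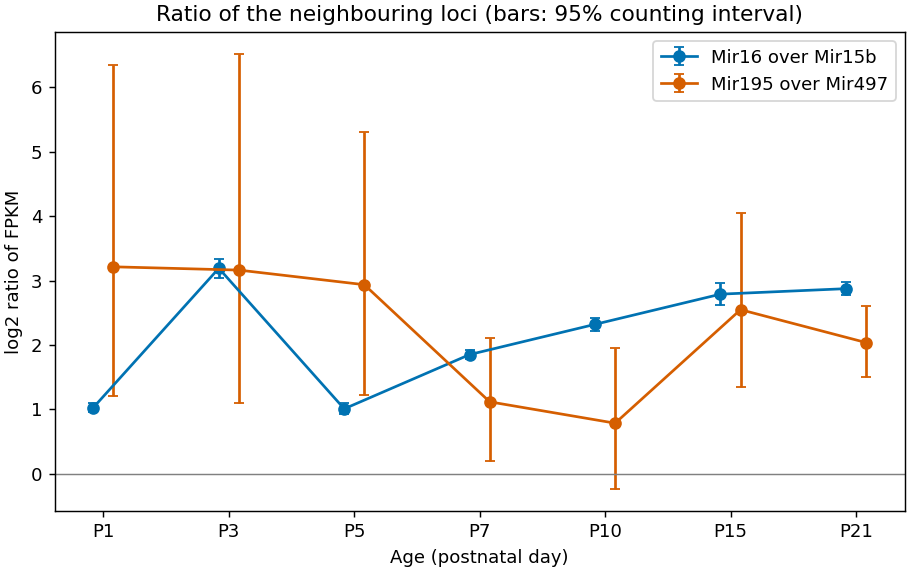
Log2 ratio of FPKM between the neighbouring loci of each cluster at the 7 ages, with 95% counting intervals as bars. The ratio of Mir16 over Mir15b is narrow in its intervals and rises from 1.01 at P5 to 2.87 at P21, with 3.19 at P3, while the ratio of Mir195 over Mir497 has intervals that overlap between all 7 ages.

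Mir195, the near twin of Mir16 in sequence, ran in the opposite direction to Mir15b. Its level was 2908 FPKM at P1, 3311 at P3, 2546 and 2588 at P5 and P7, 5380 at P10, and 14168 and 11073 at P15 and P21. The first 4 ages formed a low group whose neighbours did not differ beyond counting error, P10 was intermediate but not beyond counting error above P3, and P15 and P21 were high and overlapped in their intervals. The difference between P1 and P21 was -1.93 on the log2 scale (from -2.59 to -1.32), and P15 was 5.56-fold above P5. These values rested on 25 to 57 estimated alignments up to P10, 139 at P15 and 263 at P21. The rise took place in the steps from P7 to P10, of 1.06 (from 0.37 to 1.75), and from P10 to P15, of 1.40 (from 0.81 to 2.0).

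The components of an age could be separated at Mir195 for P3, P5, P7 and P10. They were 5163 and 1458 FPKM at P3, 3787 and 1305 at P5, 1892 and 3285 at P7 and 7200 and 3560 at P10. The lower component at P10 thus lay below the higher component of P3 and of P5, and the step from P7 to P10 was smaller than the largest median difference between components, whereas the step from P10 to P15 exceeded it. The high levels at P15 and P21 were above every separated component of the earlier ages. Their own components could not be separated, so whether each of these was also above is not known.

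Mir195 and Mir16 are so alike in sequence that the division of reads between the loci is uncertain, since how reads with several matches were counted is not given in the sources used here. Mir195 had between 0.673% (P1) and 4.20% (P15) as many estimated alignments as Mir16. In FPKM the log2 ratio of Mir16 over Mir195 was 6.56 (from 6.0 to 7.19) at P1, 5.96 (from 5.52 to 6.45) at P10, 3.92 (from 3.57 to 4.29) at P15 and 4.05 (from 3.84 to 4.27) at P21. The ratio was not constant. Mir195 took a larger part of the pair at P15 and P21 than at the 5 earlier ages, with no overlap of the intervals.

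Mir497, the partner of Mir195, was the least abundant member, with rank 364 by mean FPKM. It was listed at 312, 369 and 332 FPKM at P1, P3 and P5, 1192 at P7, 3119 at P10, and 2421 and 2695 at P15 and P21. The values of P1 and P3 stood for 2 alignments each and that of P5 for 3, which is at or under the floor of 3 alignments used here as the limit of detection. The other values stood for 15 alignments at P7, 12 and 10 at P10 and P15 and 48 at P21. At this depth the first 3 ages could not be ordered, and neither could P10, P15 and P21.

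The difference of Mir497 between P1 and P21 was -3.10 on the log2 scale, with a counting interval from -6.21 to -1.15 that reflects the 2 alignments at P1. Its steps of at least 2-fold were those from P5 to P7, of 1.84 (from 0.018 to 4.28), and from P7 to P10, of 1.39 (from 0.068 to 2.65), and both intervals reached almost to 0. The components at P10 were 774 and 5465 FPKM, and those at P7 were 1943 and 441 FPKM, so that the order of P7 and P10 depended on the component taken. The log2 ratio of Mir195 over Mir497 was 3.21 (from 1.21 to 6.34) at P1, 0.79 (from -0.24 to 1.95) at P10 and 2.04 (from 1.51 to 2.61) at P21. A change of this ratio between P1 and P21 was not detectable, with a difference of -1.18 (from -3.80 to 1.45).

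Taken as a cluster, Mir195 and Mir497 summed to 3221 and 3679 FPKM at P1 and P3, 2878 and 3781 at P5 and P7, 8499 at P10, and 16588 and 13768 at P15 and P21. From P1 to P7 the neighbours in the order of levels did not differ beyond counting error. The difference between P1 and P21 was -2.10 (from -2.73 to -1.51) on the log2 scale. The Mir15b and Mir16 cluster went the other way, with a summed level of 409666 FPKM at P1 and 208533 FPKM at P21, a difference of 0.97 (from 0.92 to 1.03). By FPKM Mir195 and Mir497 grew from 0.704% and 0.076% of the family at P1 to 4.98% and 1.21% at P21, while Mir15b shrank from 32.6% to 11.3%.

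The vessels of the retina grow over the same weeks, and Mir195 and Mir497 are known from vascular cells among others, so the vessel list (Mir126a of endothelial cells, Mir143 and Mir145 of mural cells) is given beside them. Its summed level was 77356 FPKM at P1, 58959 and 70735 at P3 and P5, 21511 at P7, 73858 at P10, and 128087 and 132175 at P15 and P21. The list was lowest at P7 and highest at P15 and P21. Of its 3 members, Mir145 was at least 2-fold lower at P1 than at P21, with a difference of -1.67 on the log2 scale. Mir126a and Mir143 were within 2-fold. Mir126a was highest at P1, at 42554 FPKM against 40166 at P15 and 33548 at P21. Mir143 was highest at P3, at 10554.5 FPKM against 10464 at P15 and 8595 at P21. Of all miRNA features 31.5% were at least 2-fold lower at P1. From P7 to P10 the summed list rose together with Mir195 and Mir497, but from P1 to P7 it fell while Mir195 did not differ beyond counting error. The pigment epithelium list (Mir204 and Mir211, abundant in the pigmented layer behind the retina) also had its highest levels late. Its summed level was 87709 FPKM at P1, 168716 and 154026 at P3 and P5, 141125 at P7, 287111 at P10, and 455449 and 483914 at P15 and P21. Both its members were at least 2-fold lower at P1 than at P21, against the same 31.5% of all miRNA features. Mir204 differed by -1.55 and Mir211 by -6.80 on the log2 scale, with 2090 FPKM of Mir211 at P1 and 233594 at P21. No marker of either list was at 0 at any age. The part of vessel cells and of pigment epithelium in the course of Mir195 and Mir497 was not tested.

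**Figure D3:**
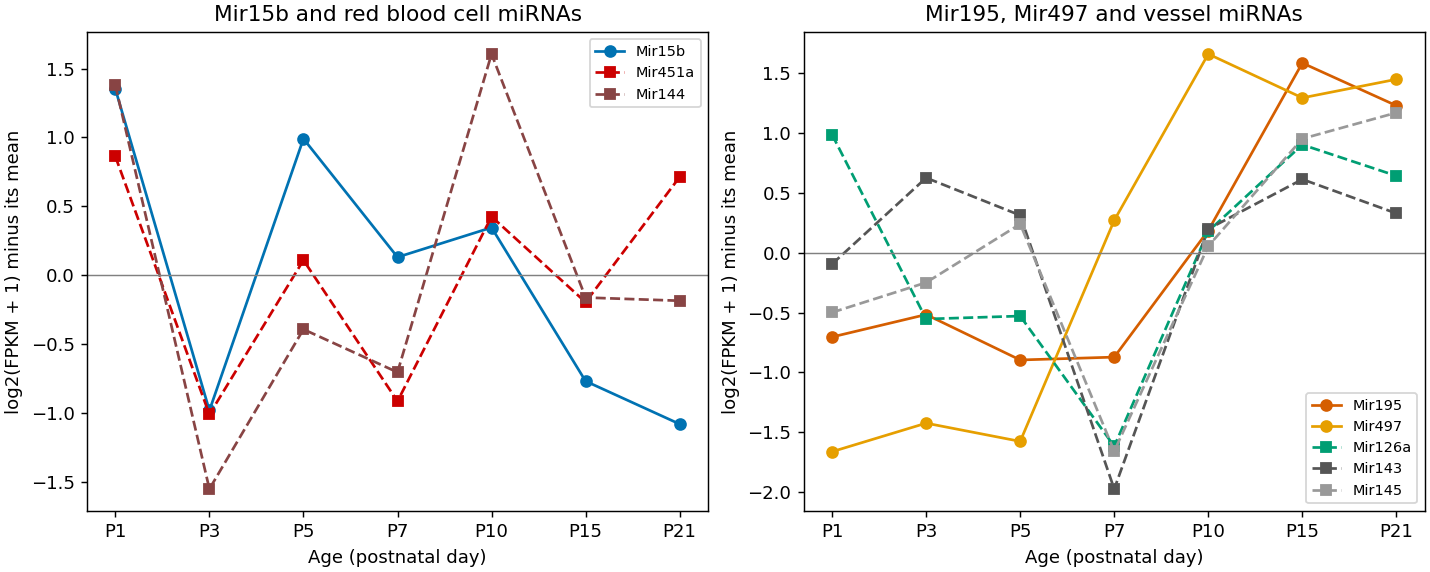
Members beside miRNAs of other cell types at the 7 ages, as log2(FPKM + 1) minus the mean of each miRNA over the ages. On the left, Mir15b and both red blood cell miRNAs are low at P3, and the red blood cell miRNAs also at P7. On the right, Mir195 is high at P15 and P21 and Mir497 at P10, P15 and P21. Mir126a, Mir143 and Mir145 have their lowest value at P7.

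Over the 6 steps between neighbouring ages the 4 members made 7 steps of at least 2-fold out of 24, or 29.2%, against 36.9% of the steps of all miRNA features. For single steps this background was 35.7% from P1 to P3, 26.3% from P3 to P5, 29.2% from P5 to P7, 47.5% from P7 to P10, 39.2% from P10 to P15 and 43.4% from P15 to P21. Mir15b made 3 of the 7 (P1 to P3, P3 to P5 and P10 to P15) and Mir195 and Mir497 made 2 each. No member changed 2-fold from P15 to P21. When a step was counted only if it exceeded the largest median difference between components, there were 5, against 25.6% of the steps of all miRNA features.

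The other loci with this seed or one like it were higher at P1 than at P21, as Mir15b was. Mir322 and Mir503 lie next to each other on chromosome X (Mir322 from 158148161 to 158148255), and copies named rno-mir-322-1 and rno-mir-503-1 lie farther along it. The copies can share reads, so they are not independent values. By 1.47 to 4.76 on the log2 scale (median 3.11), all 4 were at least 2-fold higher at P1, against 32.9% of all miRNA features. Their summed level was 69061 FPKM at P1, 31059 and 31198 at P3 and P5, 11898 and 11317 at P7 and P10, and 5799 and 5824 at P15 and P21. Mir503, which is known to repress cyclin D1 and CDC25A, had the larger changes. It went from 25733 FPKM at P1 to 8720 at P3 and 949 at P21, and no rise from P3 to P5 like that of Mir15b was seen (8760 FPKM at P5).

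**Figure D4:**
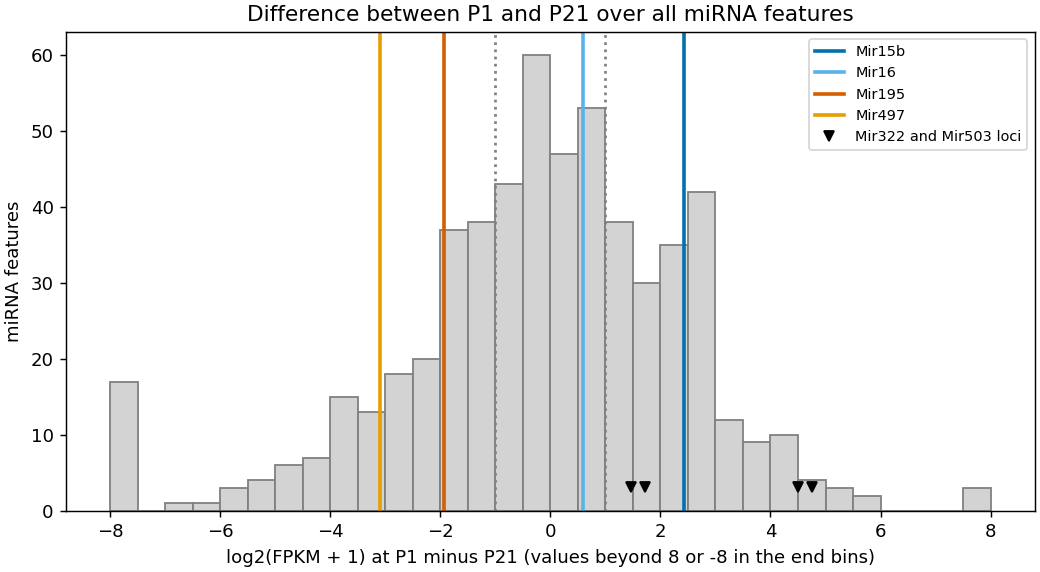
Difference of log2(FPKM + 1) between P1 and P21 over the 571 miRNA features as a histogram, with the 4 members as coloured lines and the Mir322 and Mir503 loci as triangles. Dotted lines mark a 2-fold change in each direction. Mir15b and the triangles lie on the side of higher levels at P1, Mir195 and Mir497 on the side of lower levels, and Mir16 between the dotted lines.

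Other miRNAs with known roles in cell division were compared as lists. Over all miRNA features 32.9% were at least 2-fold higher at P1 than at P21 and 31.5% lower. Of 14 loci that restrain division (the Mirlet7, Mir34 and Mir26 loci), 2 were at least 2-fold higher at P1 and 1 was lower. The other 11 were within 2-fold, and the list had a median of -0.067 beside 0.049 over all miRNA features. After scaling to the miRNA total these medians were 0.56 and 0.67. The largest differences among them were those of Mir34b (1.58) and Mir34c (1.22), which are made from 1 precursor and act downstream of p53. Of 11 loci that promote division (the Mir17 and Mir106b clusters, Mir221 and Mir222), 9 were higher at P1 and 2 were lower. The 9 all belong to the Mir17 or Mir106b cluster, and loci of the same cluster are not independent values. The median of the 11 was 2.06 beside 0.049 over all miRNA features. With TMM scaling 8 were higher, against 30.3% of all miRNA features, with a median of 1.91 beside -0.095. The largest differences were those of Mir20a (4.08) and Mir18a (4.0), both of the Mir17 cluster, and the 2 loci that went the other way were Mir221 (-2.74) and Mir222 (-2.28), which repress the inhibitor p27.

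The time courses most like each member were sought among 341 other miRNA features that averaged 20 or more estimated alignments, by the root mean square (RMS) of the log2 differences over the 7 ages after centring. Mir16 was closest to Mirlet7a1 (0.198), Mir3596c (0.233) and Mir3596a (0.248), against a median of 0.773 over the features searched. For Mir195 these were Snora58 (0.266), Mir22 (0.362) and Scarna3 (0.411), of which Snora58 and Scarna3 carry the names of RNAs that guide RNA modification although their features here are annotated as miRNA. The features nearest to Mir15b were Mir219-1 (0.488), AABR07026616.1 (0.526) and AABR07019093.1 (0.593), all with a shallower P3 value than Mir15b relative to P1 and P5. Those nearest to Mir497 were Mir190b (0.470), Mir7b (0.698) and Mir3556b (0.722). Mir190b was at 3643 FPKM at P1, 7105 at P7 and 49524 at P10. The family sum was closest to Mir3596c (0.164), AABR07018128.1 (0.20) and Mirlet7a1 (0.214). AABR07018128.1 is an Ensembl miRNA feature without a family name that spans bases 41961169 to 41961263 of chromosome 15 in the reverse direction. It was listed at 145298 FPKM at P1 and 83949 FPKM at P21 and averaged 1638 estimated alignments. Whether it is a further copy of a member was not analysed here, and it is not counted in the family or in its sum.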

How the data were processed

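Total RNA of rat retinas was extracted, pooled per age and made into small RNA libraries with the Ion Total RNA-Seq Kit v2. After trimming the reads and mapping them to Ensembl noncoding RNAs, the authors deposited FPKM values from Cufflinks and Cuffdiff (2.2.1.3 in the submitters' processing notes, Rnor_6.0). According to the paper's methods each pool was sequenced 2 times. How the libraries were scaled to each other is not given in the sources used here. The deposited values list 21 pairs of ages, and a feature has the same FPKM value at an age in every pair. The deposited fold changes, test statistics, p-values and q-values were not used.

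The members and lists were chosen with earlier results of these data known. Levels were compared as log2(FPKM + 1), which understates changes of low features, and no count test was run because the values are FPKM. The named miRNAs are the members, the Mir322 and Mir503 loci, both division lists with the 2 largest changes of each, the marker lists, and the 3 features nearest to each member by RMS. Of 724 feature lengths, 694 gave a step size at P1, and the rest were interpolated. All 4934 low P1 values then came out whole (relative tolerance 2.5e-05). The estimates for later ages assume equal signal in the components of a library, and the procedure was tested on simulated data. Counting intervals at 95% are conditional binomial for ratios, gamma for levels and Wilson for shares. Components of 1 feature were taken as separated where a single pair of whole numbers matched the value. Sequences and gene neighbours came from RefSeq tables of GRCr8, of which no coordinates were used.

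Alternatives were scaling to the miRNA total, median-of-ratios scaling, TMM scaling (trimming 30% of ratios and 5% of levels), pseudocounts of 0.1 and 10, a filter at a mean of 10 FPKM, and the mean of P10, P15 and P21 as the reference. Scaling to the total of estimated miRNA alignments, a threshold at the difference between components and ratios in alignments were added after the data were seen. Python 3.11.15, numpy 2.4.6, pandas 2.3.3, scipy 1.17.1 and matplotlib 3.10.9 were used.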

Additional observations from a re-analysis of the deposited data

How the results depend on the processing

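No member changed its direction between P1 and P21 under any alternative. Relative to the deposited scaling, scaling to the miRNA total shifted every miRNA at P1 by 0.63 against P21, scaling to estimated miRNA alignments by 1.00, median-of-ratios scaling by -0.077 and TMM scaling by -0.14, all on the log2 scale. The difference between P1 and P21 was 1.52, 1.89, 0.82 and 0.75 for the family sum in that order, and 1.21, 1.58, 0.51 and 0.44 for Mir16, so that both passed 2-fold under the scalings to a miRNA total. For Mir15b it was 3.05 and 3.43 under the scalings to a miRNA total and 2.28 under TMM scaling. For Mir195 it was -1.30 and -0.93 under the scalings to a miRNA total. Against the mean of P10, P15 and P21 it was 0.47 for the family sum, 1.71 for Mir15b and 0.17 for Mir16. The number of members at least 2-fold higher at P1 was 2 under both scalings to a miRNA total (43.6% and 50.4% of all miRNA features), and the number lower was 1 with estimated miRNA alignments (18.4%). Steps of at least 2-fold numbered 4 with scaling to the miRNA total (35.8% of the steps of all miRNA features) and 4 with TMM scaling (36.4%), against 7 (36.9%). These changes follow from the shift that each scaling applies to all miRNAs. Small steps changed sign with the scaling, among them that of Mir15b from P7 to P10 (0.21 as deposited, -0.22 with TMM scaling). Under the alternatives, single steps moved by less than their counting error in 105 instances and by more in 39. The pseudocounts, small beside these values, moved no step beyond its counting error. All of the 39 came from a scaling and fell on Mir15b and Mir16, whose counting intervals are narrow, except for a step of Mir195. That step, from P15 to P21, was -0.84 with scaling to the miRNA total and -0.36 as deposited. The likeness of time courses could not change with the scaling, which shifts both courses alike. No paired analysis was possible because each age had 1 library. Depth limited Mir497 most, with 2 or 3 alignments at P1, P3 and P5.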
